A study of Mus musculus with 6 samples.

Results

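Axoneme and intraflagellar transport (IFT) genes were followed in the mRNA of mouse pachytene spermatocytes, male germ cells in mid prophase of meiosis, when paired homologous chromosomes recombine. The members were all genes named Dnah, Dnaic, Dnal, Dnali, Tekt, Rsph or Ift with a number, and 44 of the 21310 gene identifiers in the deposited mRNA table belonged to them. Tekt4, Dnah7a, Dnah7c and the antisense genes Dnah2os and Ift88os also fit the names and were not analysed here. The mRNA came from 1 library of Alkbh1-/- spermatocytes and 1 library of WT spermatocytes. Alkbh1-/- mice carry a targeted deletion of exon 6 of Alkbh1, and heterozygotes of the line were backcrossed onto C57/BL6. The WT animals are labelled only as wild type. Neither the age of the mice nor the number of animals behind a library is given in the labels. Polyadenylated RNA was taken on oligo(dT) particles from RNA longer than 200 nt, with an input of 1.6 µg for Alkbh1-/- and 1 µg for WT, and sequenced as 75 bp paired ends. The series also holds 4 small RNA libraries, which were not used here. With 1 library per genotype there is no test and no replicate error. Genotype, animal and preparation cannot be told apart, and every interval below covers counting error only.

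An axoneme is the ring of microtubule doublets at the core of a motile cilium or sperm flagellum. Rows of outer and inner dynein arms on each doublet are the motors that make neighbouring doublets slide, radial spokes pass signals from the central pair to the arms, and tektins are filament proteins inside the doublet wall. Intraflagellar transport carries the building material: the IFT-B complex moves cargo towards the tip with kinesin, and the IFT-A complex returns it with a cytoplasmic dynein. In mouse testis many of these genes are transcribed in spermatocytes, before the flagellum is built in spermatids.

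The libraries held 10229260 counts in Alkbh1-/- and 8222671 in WT. Members took 1.73% of them in Alkbh1-/- (95% Wilson interval 1.72 to 1.74) and 1.74% in WT (1.73 to 1.75). Levels are given in CPM, counts scaled to the library total after TMM correction, and were not divided by transcript length, so levels of different genes are not ranked. Alkbh1 itself had 20.2 CPM in Alkbh1-/- and 21.0 CPM in WT, and since reads of all exons are summed, this says nothing about exon 6. The labelled cell type was checked on its markers. The synaptonemal complex, recombination and other meiotic prophase genes summed to 8882 CPM in Alkbh1-/- and 8703 CPM in WT. Genes of Sertoli cells, the somatic nurse cells of the tubule, summed to 1764 CPM in Alkbh1-/- and 3641 CPM in WT, and genes of spermatids, the later germ cells, to 4115 CPM in Alkbh1-/- and 3308 CPM in WT. Genes of Leydig cells, the steroid-making cells between the tubules, summed to 229 CPM in Alkbh1-/- and 186 CPM in WT. Among the 10 at 5 CPM or more in a library, 6 were at least 1.5-fold higher and 1 lower. Of these 6, 2 reached 5 CPM through the Alkbh1-/- library alone. Genes of spermatogonia, the germ cells before meiosis, summed to 201 CPM in Alkbh1-/- and 239 CPM in WT, with 3 of 10 higher and 2 lower. Over all genes at 5 CPM or more in a library, 8.06% were at least 1.5-fold higher and 8.79% lower. The part of these other cells in the results below was not tested. Fewer cells of a type and less RNA per cell cannot be told apart in such bulk samples.

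As a group, the axoneme and IFT genes had almost the same mRNA levels in Alkbh1-/- and WT spermatocytes. Folds were taken as log2((Alkbh1-/- + 1)/(WT + 1)) in CPM, and genes were counted if they reached 5 CPM in at least 1 library, which 42 of the 44 members and 12189 of all genes did. The median log2 value was 0.01 over these members and -0.02 over all genes. Exactly 21 members lay above 0 and 21 below, where 47.9% of all genes lay above 0. At 1.5-fold, 2 members were higher in Alkbh1-/-, Dnah3 and Dnah5, against 8.06% of all genes, and 0 were lower, against 8.79%. On this scale none of the 42 reached 2-fold, against 1.8% of all genes higher and 2.71% lower.

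The other members stayed within a narrow band. The range from the lower to the upper quartile of all 42 was 0.25 on the log2 scale, against 0.44 over all genes at the floor. The members also had more reads than the genes they are set against, with a median of 2824 reads over both libraries against 586, so their ratios carry less counting error. The SD of the log2 ratio over the members, 0.29, was larger than the median counting SE of a member's log2 ratio, 0.05. This SD was taken without a pseudocount and over all 42, Dnah3 and Dnah5 included, so it is not the spread of the other members. The 95% counting interval of the ratio lay wholly above 1 for 15 members and wholly below 1 for 11, where these shares were 23.7% and 26.8% of all genes. How far 2 WT libraries would differ in these genes was not measured.

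**Figure D1:**
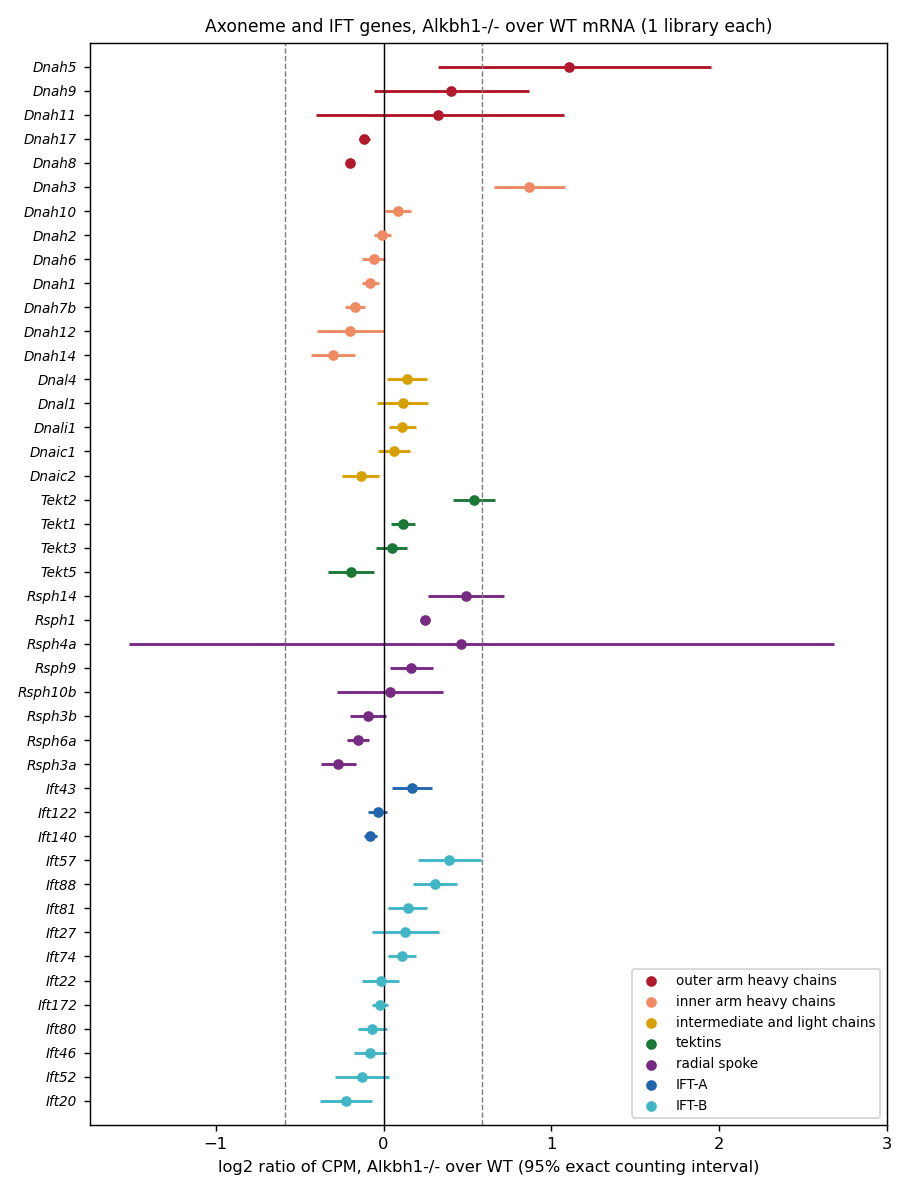
Log2 ratio of CPM, Alkbh1-/- over WT, for the 44 members by family, with 95% exact (Clopper-Pearson) counting intervals; the solid line marks equal levels and the dashed lines 1.5-fold, and no pseudocount was added here. Dnah3 is the member whose whole interval lies beyond 1.5-fold, and the widest interval belongs to Rsph4a, with 7 reads in Alkbh1-/- and 4 in WT.

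**Figure D2:**
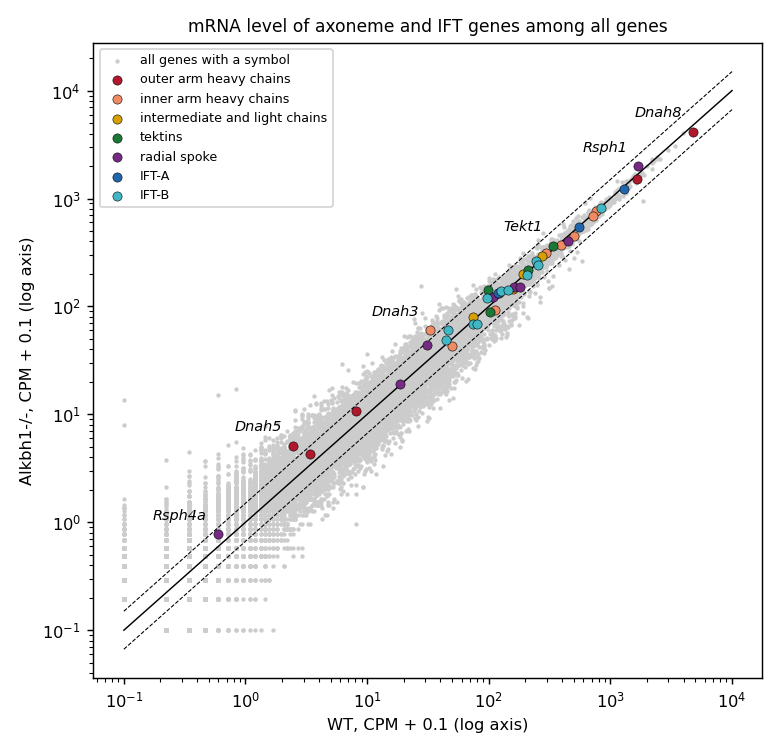
Level in Alkbh1-/- (vertical) against WT (horizontal) in CPM + 0.1 on log axes for all genes with a symbol (grey) and the members (coloured by family), with the line of equality and dashed lines at 1.5-fold. Members run along the line of equality, with Dnah5 and Dnah3 above the upper dashed line.

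The sequence before the start of 5 members is shown because these genes carry the results: the tektin gene Tekt1 and the inner arm gene Dnali1 as members at nearly equal levels, Tekt2 and Dnah5 as members on the higher side, and Dnah8 as the flagellar counterpart of Dnah5. RefSeq tables on GRCm38.p6 held a promoter for 37 of the 44 members, Dnah3 not among them. Each line gives the 250 bases before an annotated start, 5′ to 3′ on the gene's strand, at chr11:72361883-72362132 (minus strand) for Tekt1, chr4:125065658-125065907 (minus) for Dnali1, chr4:126325689-126325938 (minus) for Tekt2, chr15:28203516-28203765 (plus) for Dnah5 and chr17:30626686-30626935 (plus) for Dnah8. For Tekt1 and Tekt2, which have several annotated starts, the most upstream is shown. Capitals mark matches, on either strand, to GTTGCCA, one arm of the X-box bound by RFX factors, or to AACNGNC, a form of the MYB element.
Tekt1: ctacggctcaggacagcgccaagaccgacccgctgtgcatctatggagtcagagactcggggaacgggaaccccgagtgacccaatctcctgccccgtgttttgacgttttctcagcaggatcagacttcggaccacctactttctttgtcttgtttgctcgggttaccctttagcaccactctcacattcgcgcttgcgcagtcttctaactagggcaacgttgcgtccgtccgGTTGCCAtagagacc
Dnali1: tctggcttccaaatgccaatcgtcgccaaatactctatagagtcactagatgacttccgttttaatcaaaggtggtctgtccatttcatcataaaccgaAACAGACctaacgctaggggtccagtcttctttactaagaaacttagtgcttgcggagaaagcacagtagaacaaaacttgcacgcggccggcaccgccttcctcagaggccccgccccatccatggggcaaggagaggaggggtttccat
Tekt2: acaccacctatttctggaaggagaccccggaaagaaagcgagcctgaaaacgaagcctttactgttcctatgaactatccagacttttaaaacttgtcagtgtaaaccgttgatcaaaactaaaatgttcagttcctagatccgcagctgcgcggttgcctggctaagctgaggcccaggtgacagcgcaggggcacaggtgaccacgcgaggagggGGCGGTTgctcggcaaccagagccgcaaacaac
Dnah5: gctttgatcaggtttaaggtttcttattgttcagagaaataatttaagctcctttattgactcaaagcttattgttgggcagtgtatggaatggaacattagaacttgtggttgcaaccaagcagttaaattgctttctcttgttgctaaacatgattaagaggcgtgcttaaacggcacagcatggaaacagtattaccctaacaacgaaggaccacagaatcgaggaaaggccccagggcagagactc
Dnah8: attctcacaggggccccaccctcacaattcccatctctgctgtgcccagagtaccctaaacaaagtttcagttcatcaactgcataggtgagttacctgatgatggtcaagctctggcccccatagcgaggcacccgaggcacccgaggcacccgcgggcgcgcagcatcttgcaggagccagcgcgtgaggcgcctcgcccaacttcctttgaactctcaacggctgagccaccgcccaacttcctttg
In Tekt1 the capitals are the RFX half-site, beginning 15 bases before the start. In Dnali1 and Tekt2 they are the MYB element, at 151 and 33 bases, while these letters are not in the windows of Dnah5 and Dnah8. The matches depend on the start shown. At chr11:72361297-72361546, the window of another Tekt1 start holds 0 RFX half-sites and 1 MYB element. The window of another Tekt2 start, at chr4:126325436-126325685, holds 0 of either. RFX and MYB factors are known regulators of ciliary and meiotic genes. For the shares, 1 promoter a gene was used, the first listed, so they depend on that choice too. The RFX half-site was in 3 of 37 member promoters (8.11%) and in 3.69% of all 27025 promoters. The MYB element was in 16 of 37 (43.2%) and in 27.6% of all promoters. The cyclic AMP response element TGACGTCA was in 2 of 37 (5.41%) and in 1.62% of all promoters, and its half-site TGACG, which the full element contains, in 6 of 37 (16.2%) and in 17.9%. Over the 9029 promoters of genes that reached 5 CPM in a library, these shares were 3.65% for the RFX half-site, 28.9% for the MYB element, 2.89% for the response element and 26.9% for its half-site. The 95% Wilson interval of the MYB share in members was 28.7 to 59.1%, and a match is a description of letters, not a site.

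The outer arm heavy chains showed the flagellar set of motors. Flagellar outer arms are built with the heavy chains of Dnah8 and Dnah17, while Dnah5, Dnah9 and Dnah11 encode those of motile cilia in other tissues such as the airway. Dnah8 had 42941 reads in Alkbh1-/- and 38775 in WT, or 4153 CPM in Alkbh1-/- and 4766 CPM in WT (ratio 0.871, interval 0.860 to 0.884). Dnah17 had 1529 CPM in Alkbh1-/- and 1654 CPM in WT (ratio 0.924, interval 0.903 to 0.946). Both flagellar genes were thus slightly lower in the Alkbh1-/- library, by more than counting error.

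All 3 genes of motile cilia were at low levels and on the other side. Dnah5 (ENSMUSG00000022262) had 52 reads in Alkbh1-/- and 19 in WT, or 5.03 CPM in Alkbh1-/- and 2.34 CPM in WT (ratio 2.15, interval 1.25 to 3.86). It reached the floor of 5 CPM through the Alkbh1-/- library alone, and with a floor of 20 CPM or a pseudocount of 5 CPM it is no longer counted as higher. Dnah9 had 109 reads in Alkbh1-/- and 65 in WT (ratio 1.32, interval 0.962 to 1.82), and Dnah11 had 43 reads in Alkbh1-/- and 27 in WT (ratio 1.25, interval 0.757 to 2.11), so neither differed beyond counting error. In reads, which are not corrected for transcript length, Dnah8 and Dnah17 held 99.7% of the outer arm heavy chain reads in Alkbh1-/- (95% Wilson interval 99.6 to 99.7) and 99.8% in WT (99.7 to 99.8). The 3 genes of motile cilia held 0.346% in Alkbh1-/- (0.302 to 0.397) and 0.212% in WT (0.176 to 0.255).

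**Figure D3:**
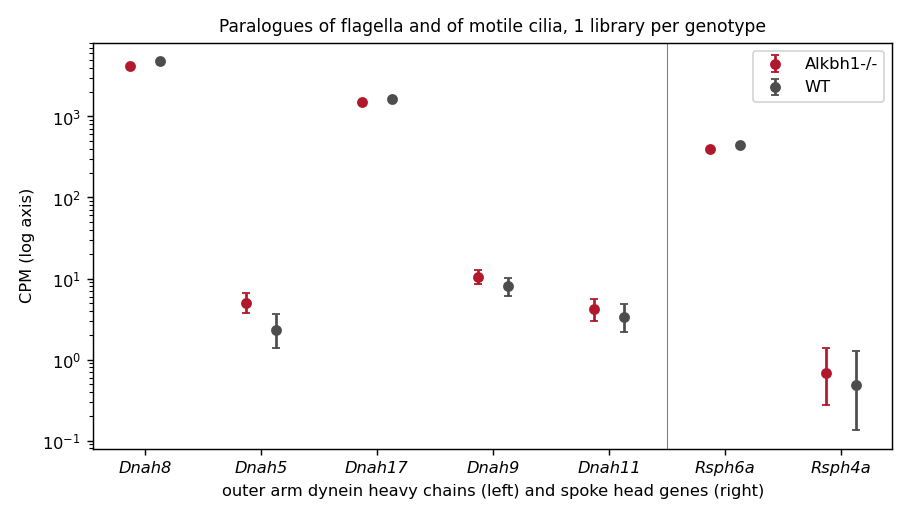
CPM in Alkbh1-/- (red, left of each pair) and WT (grey) on a log axis, not divided by transcript length, with 95% exact Poisson intervals, for the outer arm heavy chains and for a pair of spoke head genes. Dnah8, Dnah17 and Rsph6a, the genes of flagella, lie between 400.5 and 4766 CPM over both libraries, and Dnah5, Dnah9, Dnah11 and Rsph4a between 0.492 and 10.5 CPM.

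Markers of multiciliated cells, which line the efferent ducts beside the testis, were set beside these genes. Of 18 listed genes 17 were in the table, Tekt1 and Dnah5 among them, and the other 15 summed to 373 CPM in Alkbh1-/- and 278 CPM in WT. Of the 5 at the floor, Foxj1, Cdc20b and Fam183b passed 1.5-fold on the higher side in Alkbh1-/- and 0 on the lower side. The median log2 value over the 5 was 0.73. Over all genes at the floor, 8.06% were higher and 8.79% lower. The other genes of these 5 were Deup1, with 1458 reads in Alkbh1-/- and 851 in WT (ratio 1.35, interval 1.24 to 1.47), and Cdhr4, with 912 reads in Alkbh1-/- and 727 in WT (ratio 0.987). The 10 under the floor had between 0 and 44 reads in a library, so the sum rests mostly on the 5 at the floor. Among them Trp73, a transcription factor of the multiciliated program, had 32 reads in Alkbh1-/- and 7 in WT (ratio 3.60, interval 1.56 to 9.66), Ccno had 44 reads in Alkbh1-/- and 38 in WT, and Tmem212 had 22 reads in Alkbh1-/- and 9 in WT. Mcidas, which starts that program with Gmnc, had 1 read in Alkbh1-/- and 2 in WT, and Gmnc had 5 reads in Alkbh1-/- and 0 in WT. Foxn4 had 7 reads in Alkbh1-/- and 6 in WT, Myb had 4 in each, and Ccdc153 had 5 in Alkbh1-/- and 4 in WT. Sec14l3 had 8 reads in Alkbh1-/- and 2 in WT, and Cdhr3 had 2 in Alkbh1-/- and 0 in WT. The part of such cells in the values of Dnah5, Dnah9 and Dnah11 was not tested.

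Inner arm heavy chains differed little, apart from Dnah3. Dnah3 (ENSMUSG00000052273) had 622 reads in Alkbh1-/- and 268 in WT, or 60.2 CPM in Alkbh1-/- and 32.9 CPM in WT. The ratio was 1.83 (interval 1.58 to 2.12), the one member interval wholly beyond 1.5-fold, where 2.91% of all genes had an interval wholly above 1.5 and 4.34% one wholly below 1/1.5. Its share of the inner arm heavy chain reads was 2.17% in Alkbh1-/- (95% Wilson interval 2.01 to 2.34) and 1.15% in WT (1.02 to 1.29). The genes of the double-headed inner arm, Dnah2 and Dnah10, were close to equal. Dnah2 had 763 CPM in Alkbh1-/- and 767 CPM in WT (ratio 0.996, interval 0.963 to 1.03), and Dnah10 had 311 CPM in Alkbh1-/- and 293 CPM in WT (ratio 1.06, interval 1.00 to 1.12). Dnah2 has an annotated antisense partner, and whether counting used strand was not stated, so reads of the pair cannot be separated.

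The other 5 inner arm or unplaced heavy chains were on the lower side. Dnah1, needed for sperm movement in mouse, had 682 CPM in Alkbh1-/- and 720.0 CPM in WT (ratio 0.947, interval 0.915 to 0.981). Dnah6 had 374 CPM in Alkbh1-/- and 389.9 CPM in WT, and its interval spanned 1. Dnah12 had 43.3 CPM in Alkbh1-/- and 49.7 CPM in WT, with an interval of 0.761 to 1.00. Dnah14, whose place in the arms is not assigned here, had the lowest value of all members at the floor. It stood at 91.9 CPM in Alkbh1-/- and 113 CPM in WT (ratio 0.813, interval 0.741 to 0.891). Dnah7b had 448 CPM in Alkbh1-/- and 504 CPM in WT (ratio 0.890). Its reads may be shared with the near-identical copies Dnah7a and Dnah7c, so this value is uncertain.

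The intermediate and light chains, which anchor and regulate the arms, lay between -0.14 and 0.14 on the log2 scale. Dnali1 (ENSMUSG00000042707), the light intermediate chain of inner arms, had 293 CPM in Alkbh1-/- and 271 CPM in WT (ratio 1.08, interval 1.02 to 1.14). On GRCm38 its span overlaps Gnl2, with 1464 reads in Alkbh1-/- and 1091 in WT, and reads from the overlap could be counted for either. The outer arm intermediate chains went to opposite sides of 1. Dnaic1 had 201 CPM in Alkbh1-/- and 192 CPM in WT (ratio 1.04, interval 0.977 to 1.12), and Dnaic2 had 144 CPM in Alkbh1-/- and 158 CPM in WT (ratio 0.910, interval 0.844 to 0.981). Of the light chains, Dnal1 had 80.5 CPM in Alkbh1-/- and 74.4 CPM in WT, and Dnal4 had 133 CPM in Alkbh1-/- and 120.2 CPM in WT. The interval of the ratio left out 1 for Dnal4 (1.02 to 1.20) but not for Dnal1 (0.973 to 1.20).

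Among the tektins, Tekt2 stood apart from Tekt1, Tekt3 and Tekt5. Tekt2 had 1467 reads in Alkbh1-/- and 795 in WT, or 142 CPM in Alkbh1-/- and 97.7 CPM in WT. Its ratio of 1.45 (interval 1.33 to 1.58) fell just short of 1.5-fold, and its share of tektin reads was 17.4% in Alkbh1-/- (16.6 to 18.2) and 13.1% in WT (12.3 to 14.0). Tekt1 (ENSMUSG00000020799) had 366 CPM in Alkbh1-/- and 337 CPM in WT (ratio 1.08, interval 1.03 to 1.14). Tekt3, needed for normal forward movement of mouse sperm, had 217 CPM in Alkbh1-/- and 209.7 CPM in WT (ratio 1.04, interval 0.971 to 1.10). Tekt5 was the one tektin on the lower side, with 89.6 CPM in Alkbh1-/- and 102 CPM in WT (ratio 0.876, interval 0.797 to 0.963).

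The radial spoke genes were led in reads by Rsph1, a spoke head protein abundant in testis. Rsph1 had 20666 reads in Alkbh1-/- and 13716 in WT, or 1999 CPM in Alkbh1-/- and 1686 CPM in WT (ratio 1.19, interval 1.16 to 1.21). It held 69.3% of the reads of the 8 Rsph genes in Alkbh1-/- (68.7 to 69.8) and 64.1% in WT (63.4 to 64.7). Its spoke head partner Rsph9 had 121 CPM in Alkbh1-/- and 108 CPM in WT (ratio 1.12, interval 1.03 to 1.22). The related head genes Rsph6a and Rsph4a, found in sperm and in motile cilia, were far apart in reads. Rsph6a had 4141 reads in Alkbh1-/- and 3620 in WT (ratio 0.900, interval 0.861 to 0.941). Rsph4a had 7 reads in Alkbh1-/- and 4 in WT, too few to compare.

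Rsph14 was the spoke gene with the highest value at the floor, 43.8 CPM in Alkbh1-/- and 31.2 CPM in WT (ratio 1.40, interval 1.20 to 1.64). Rsph10b had 197 reads in Alkbh1-/- and 151 in WT (ratio 1.03, interval 0.826 to 1.28), close to equal. The spoke stalk genes Rsph3a and Rsph3b are near-identical copies, so reads may be split between them and both values are uncertain. Rsph3a had 150.2 CPM in Alkbh1-/- and 181 CPM in WT (ratio 0.830, interval 0.773 to 0.892), and Rsph3b had 151 CPM in Alkbh1-/- and 161 CPM in WT (ratio 0.939, interval 0.872 to 1.01).

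IFT genes were even too. All 14 reached the floor, with a median log2 value of -0.02 and a range of -0.22 to 0.39. In the IFT-A complex, Ift140 had 1229 CPM in Alkbh1-/- and 1297 CPM in WT (ratio 0.947, interval 0.923 to 0.972), and Ift122 had 542 CPM in Alkbh1-/- and 556 CPM in WT, with an interval that spanned 1. Ift43 was on the other side, at 134 CPM in Alkbh1-/- and 119.6 CPM in WT (ratio 1.12, interval 1.03 to 1.22).

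In the IFT-B complex, Ift57 and Ift88 had the highest values. Ift57, a peripheral subunit, had 624 reads in Alkbh1-/- and 374 in WT (ratio 1.31, interval 1.15 to 1.496). Ift88, a core subunit needed for sperm flagella in mouse, had 1242 reads in Alkbh1-/- and 790 in WT (ratio 1.24, interval 1.13 to 1.35), and it too has an annotated antisense partner. Ift74 and Ift81, whose proteins pair to bind tubulin, had like ratios. Ift74 had 262 CPM in Alkbh1-/- and 243 CPM in WT (ratio 1.08, interval 1.02 to 1.14), and Ift81 had 139.6 CPM in Alkbh1-/- and 126 CPM in WT (ratio 1.10, interval 1.02 to 1.20). For Ift172, a large peripheral subunit, levels were 818 CPM in Alkbh1-/- and 830.2 CPM in WT (ratio 0.985, interval 0.954 to 1.02).

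Ift20, which also works at the Golgi in sending cargo to the cilium, was the lowest of the family and the one IFT-B gene whose interval lay below 1. It had 713 reads in Alkbh1-/- and 656 in WT (ratio 0.855, interval 0.768 to 0.952). For the other 5, Ift22, Ift27, Ift46, Ift52 and Ift80, ratios lay between 0.915 for Ift52 and 1.09 for Ift27, and every interval spanned 1.

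Partners of the members, from lists of other ciliary genes, are to be read against the same shares of all genes. Listed genes that are themselves members were left out of the counts that follow, and so were genes that did not reach the floor. Dynein arm assembly factors, which fold and load the arms in the cytoplasm, had 0 of 15 at 1.5-fold in either direction and a median log2 value of 0.01, with Dnaaf1 at 1433 CPM in Alkbh1-/- and 1419 CPM in WT. Genes of the BBSome, the coat that moves membrane cargo, and of its partners had 0 of 11 at 1.5-fold in either direction (median 0.07). Dynein docking and the nexin-dynein regulatory complex had 0 of 13 (median -0.02). Of 19 genes of microtubule inner proteins, 1 was higher, Cfap77, and 0 were lower (median 0.06). Of 10 genes listed as IFT subunits with other symbols, among them Tulp3, which is not itself a subunit, 1 was higher, Traf3ip1, and 0 were lower (median 0.06). The other dynein chains had 1 of 12 higher, Tctex1d1, and 1 lower, Dynlt3 (median -0.09). Tctex1d1, at 7.45 CPM in Alkbh1-/- and 4.30 CPM in WT, reached the floor of 5 CPM through the Alkbh1-/- library alone. With a floor of 20 CPM, 0 of 10 were higher and 0 lower.

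In the next lists the counts on the higher side were near the share of all genes, 8.06%. On the lower side the counts were 0, where 8.79% of all genes were lower. Among 12 IFT motor genes 1 was higher and 0 were lower (median -0.01). That gene was the kinesin Kif17, with 183 CPM in Alkbh1-/- and 101 CPM in WT (ratio 1.81, interval 1.66 to 1.96), while the retrograde motor Dync2h1 had 442 CPM in Alkbh1-/- and 452 CPM in WT. Among 24 central pair and spoke partners, 2 were higher, Spag6 and Ropn1, and 0 were lower (median 0.11). Spag6, a central pair protein with a related copy Spag6l, had 94.2 CPM in Alkbh1-/- and 48.9 CPM in WT (ratio 1.93, interval 1.71 to 2.17). Reads may be shared between these copies.

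Genes of the accessory structures of the sperm tail, known for expression in spermatids, had a higher median. Of 16 outer dense fibre and fibrous sheath genes, 3 were higher and 0 lower, with a median of 0.29. With a floor of 20 CPM, 2 of 15 were higher, against 5.54% of all genes, and the median was 0.17. The listed genes summed to 10732 CPM in Alkbh1-/- and 10760 CPM in WT, so their total was almost equal. This total leans on Ldhc, the listed gene with most reads, at 4234 CPM in Alkbh1-/- and 4918 CPM in WT (ratio 0.861). Of the 16 intervals, 13 lay wholly above 1 and 1 wholly below, where these shares were 23.7% and 26.8% of all genes. Odf1 and Akap4 are in this list and in the spermatid list below. Odf1, a protein of the outer dense fibres, had 199 CPM in Alkbh1-/- and 113 CPM in WT (ratio 1.75, interval 1.62 to 1.90), and Cabyr had 154 CPM in Alkbh1-/- and 91.5 CPM in WT. Of 27 spermatid markers, 12 were at least 1.5-fold higher and 0 lower (median 0.53). By sign alone, 22 lay above 0 and 5 below. Their intervals lay wholly above 1 for 21 and wholly below 1 for 3. Tnp1 (ratio 0.785, interval 0.735 to 0.837) and Tnp2 (ratio 0.907, interval 0.859 to 0.958) were on the lower side. Of 28 meiotic prophase genes, 7 were higher and 0 lower (median 0.22). Of these 7, Dmc1, Rec114 and Mnd1 reached the floor of 5 CPM through the Alkbh1-/- library alone. Over the 21 genes at 20 CPM in a library 3 were higher and the median was 0.05. There too, 2 of the 21 reached 20 CPM through the Alkbh1-/- library alone. Of these 2, Msh4 was among the 3 higher, with 26.6 CPM in Alkbh1-/- and 15.7 CPM in WT. Of 20 Sertoli genes 0 were higher and 18 lower (median -1.12). A difference between the members and these lists was not tested.

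The scaling sets the zero of these values. Relative to the meiotic prophase genes, whose median was set to 0, the median of the members became -0.24 and that of all genes -0.24. With that median taken over the meiotic genes at 20 CPM, they were -0.06 and -0.07, so the size of this shift rests on meiotic genes of low level. In the scaling to all meiotic genes at the floor, 7 of 41 members at the floor lay above 0, 1 was at least 1.5-fold higher and 0 were lower, with Dnah3 as the higher gene in both scalings and Dnah5 under the floor in this one.

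**Figure D4:**
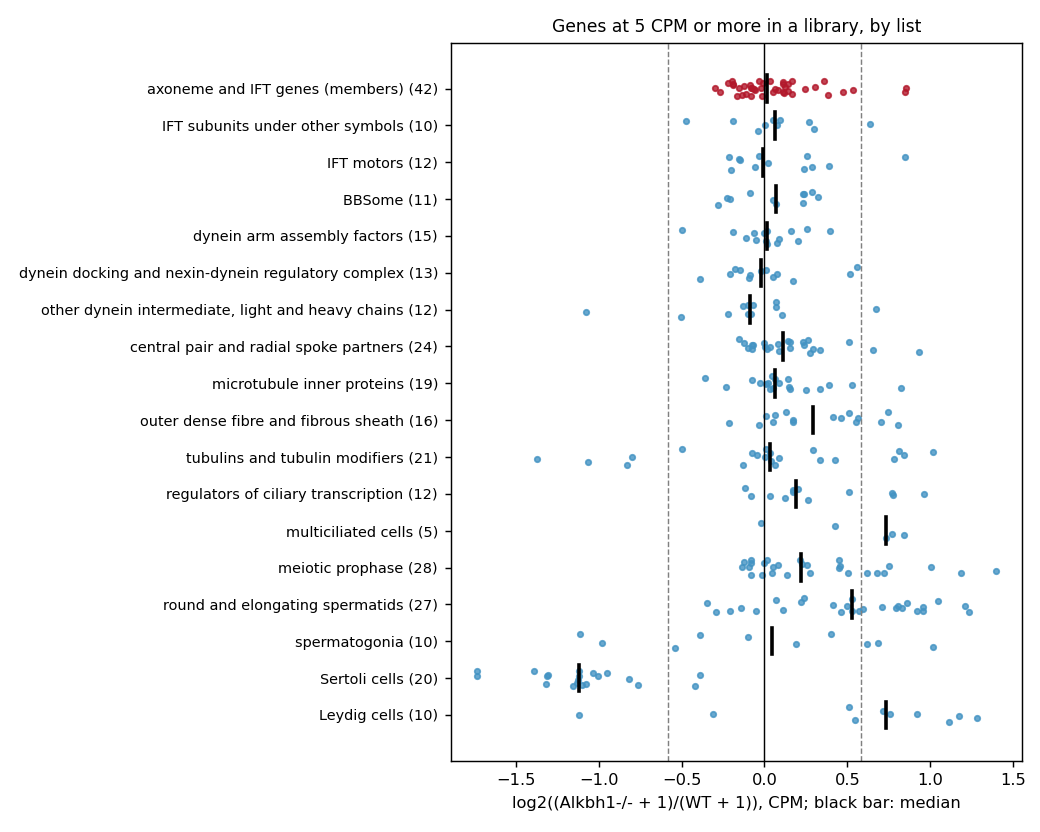
Log2((Alkbh1-/- + 1)/(WT + 1)) in CPM of genes at 5 CPM or more in a library, for the members (red) and the other lists (blue, members left out), 1 point a gene and a black bar at the median, with the number of genes in parentheses and dashed lines at 1.5-fold. The members centre on 0.01, the spermatid genes on 0.53 and the Sertoli genes on -1.12.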

How the data were processed

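mRNA of pachytene spermatocytes was measured in 2 libraries, 1 Alkbh1-/- and 1 WT. The deposited table holds whole-number counts per Ensembl gene, with no normalization by the authors. The submitters' processing notes name TopHat, Novoalign, bedtools, CASAVA 1.3 and mm9 without their roles; which tool counted reads, with which annotation and whether by strand is not given in the sources. Of 21310 identifiers, 19848 (93.1%) matched a symbol. edgeR 4.0.16 (R 4.3.3) gave TMM factors over the whole table. Ratios have exact Clopper-Pearson 95% intervals, levels exact Poisson intervals and shares Wilson intervals (Python 3.11.15, scipy 1.17.1, statsmodels 0.14.6). They cover counting error only, since PCR reads without molecular identifiers are not independent molecules. With 1 library per genotype no test was made. A pseudocount of 1 CPM was used for log2 values, which understates the change of low genes, and a floor of 5 CPM in a library for counts of genes. On simulated Poisson counts with 11796 genes at the floor, intervals covered the true ratio for 95.5% of unchanged genes. The intervals assume such counts, so this checks the computation only and says nothing about PCR or replicate error.

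The members and all lists were chosen with earlier results of these data known. Every member could be named. Of the other lists, genes were named for an interval beyond 1.5-fold (up to 6 a list) or as the 2 with most reads. Genes that made up a count of 4 or fewer, and the multiciliated markers, were named after their values were seen. So were Tnp1, Tnp2, Ttll1, Ttll5 and the tubulins short of 1.5-fold. Rsrc2 and Eps8l1 stayed in the lists as written, although no axonemal role is known for them here. Levels per kilobase were planned and not computed, since no transcript or coding lengths were used. Promoters came from RefSeq on GRCm38.p6. DESeq2 1.42.0 gave the alternative size factors. The small RNA tables were not used.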

Additional observations from a re-analysis of the deposited data

How the results depend on the processing

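No member was at least 1.5-fold lower in any setting run. Dnah3 and Dnah5, the 2 members past 1.5-fold, kept log2 values above 0 in every scaling and pseudocount setting. Their main values, both 0.85, were larger than the largest scaling shift, 0.23, so the scalings could not have turned them. Members nearer 0 did change sign: 21 lay above 0 with TMM scaling and 7 with the meiotic prophase median set to 0. The number of members at least 1.5-fold higher was 2 with TMM scaling, DESeq2 size factors, library totals, a pseudocount of 0.1 CPM and no floor. It was 1 with a pseudocount of 5 CPM, with a floor of 20 CPM, with the meiotic prophase median set to 0 and when the whole interval had to lie beyond 1.5-fold, and 0 at 2-fold. With the meiotic prophase median set to 0, a shift of 0.23 in the log2 ratio, the median of the members was -0.24 and 7 members lay above 0. With only the meiotic prophase genes at 20 CPM used for that median, an alternative chosen after seeing the data, the shift was 0.05, the median of the members -0.06, and 1 member was higher and 18 lay above 0. In the other settings the median stayed between -0.02 and 0.05. Chosen after seeing the data, leaving out Dnah7b, Rsph3a and Rsph3b, or the 9 members at the floor whose span overlaps a protein-coding gene on GRCm38, kept the count of 2. Dnah5, with 19 WT reads, is limited by depth: its log2 value ranged from 0.45 to 1.08 over the settings. No paired analysis was possible because each genotype has 1 mRNA library.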

Other observations

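Among 21 tubulin genes and tubulin-modifying enzymes at the floor, 4 passed 1.5-fold on the higher side in Alkbh1-/- and 4 on the lower side, where 8.06% of all genes were higher and 8.79% lower. A difference from the axoneme genes or from all genes was not tested. The lower genes were the tubulins Tuba1a, Tuba1b, Tuba1c and Tubb5, which many cell types use. The other tubulins at the floor were each short of 1.5-fold. Tube1 (ratio 1.38, interval 1.01 to 1.90) and Tuba4a (ratio 1.27, interval 1.02 to 1.60) were on the higher side. Tubd1 (ratio 0.705, interval 0.627 to 0.792) was on the lower side. For Tubb6 (ratio 1.24) the interval, 0.9996 to 1.54, spanned 1. Tuba1a had 30.6 CPM in Alkbh1-/- and 80.6 CPM in WT (ratio 0.379, interval 0.330 to 0.434), and Tubb5 had 51.3 CPM in Alkbh1-/- and 109 CPM in WT (ratio 0.472, interval 0.423 to 0.527). The testis tubulins Tuba3a and Tuba3b, near-identical copies whose reads may be shared, were equal, at 1992 CPM in Alkbh1-/- and 1990.1 CPM in WT for Tuba3a. The higher genes were all tubulin tyrosine ligase-like enzymes: Ttll3, Ttll8, Ttll9 and Ttll10. The family did not move as a whole, since Ttll1 (ratio 1.03) and Ttll5 (ratio 0.971) were close to equal. Ttll8, a glycylase that modifies axonemal tubulin, had 115 CPM in Alkbh1-/- and 56.3 CPM in WT (ratio 2.04, interval 1.83 to 2.28). Sertoli genes moved with the lower tubulins, 18 of 20 at least 1.5-fold lower and summing to 1764 CPM in Alkbh1-/- and 3641 CPM in WT, and their part in this was not tested.

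Of 12 transcription factors and related regulators of ciliary genes, 3 were at least 1.5-fold higher, against 8.06% of all genes, and 0 lower, against 8.79% (median log2 value 0.19). Rfx3 had 29.5 CPM in Alkbh1-/- and 14.6 CPM in WT (ratio 2.02, interval 1.63 to 2.51). Rfx1 had 95.3 CPM in Alkbh1-/- and 55.3 CPM in WT (ratio 1.72), and Foxj1 had 76.6 CPM in Alkbh1-/- and 44.5 CPM in WT (ratio 1.72). Rfx2, a regulator of ciliary genes in male germ cells, was close to equal, with 633 CPM in Alkbh1-/- and 618 CPM in WT (ratio 1.02, interval 0.988 to 1.06).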
